A study of Mus musculus with 10 samples.

Results

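Transcripts of the class IIa histone deacetylase genes and of the Mef2 transcription factor genes were followed through 7 days of reprogramming of mouse fibroblasts. The members were taken by gene name, as every row of the count table named Hdac4, Hdac5, Hdac7, Hdac9, Mef2a, Mef2c or Mef2d, which gave 7 of the 48476 genes in the table. The cells were mouse embryonic fibroblasts (MEFs) from E13.5 embryos of the strain CBA/CaJ X C57BL/6J, carrying an Oct4-GFP reporter and infected with retroviruses packaged in PlatE cells. Each arm received Oct4, Klf4 and Sox2 (OKS), the control arm with the fluorescent protein DsRed (OKS + DsRed) and the other arm with the forkhead factor FoxO6 (OKS + FoxO6), and the cells were kept in iCD1 medium. RNA of the whole cultures was sequenced at 5 times, on days 0, 1, 3, 5 and 7, as 1 library for each arm at each time, which gave 10 libraries. The arms are whole infected cultures, so a library mixes cells at different stages, and fewer cells of a type cannot be told apart from less RNA per cell.

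Class IIa deacetylases are large proteins with an N-terminal part that binds MEF2 proteins and a C-terminal deacetylase domain of very low activity. In the nucleus they hold MEF2 target genes silent together with the NCoR and SMRT corepressors, and kinases that phosphorylate conserved serines cause their binding to 14-3-3 proteins and export to the cytoplasm, which frees MEF2. Hdac9 is itself a known target of MEF2 in muscle and gives a short form without the deacetylase domain (MITR), while Hdac4, Hdac5 and Hdac7 are best known from the growth plate, the heart and blood vessels, and Mef2a, Mef2c and Mef2d from muscle, neurons and lymphocytes.

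Between 1208379 and 2225750 expected counts were assigned to genes in a library, so that a member was counted with few reads in some of them. Foxo6 was at 762.11 to 1356.41 TPM (transcript abundance scaled for length and depth) in the OKS + FoxO6 libraries, day 0 included, and at 0.61 to 2.29 TPM in the OKS + DsRed libraries, and the labels of the arms held in 10 of 10 libraries. Of 10 fibroblast markers all passed the expression filter, and 9 changed over the days, as 19.6% of all genes tested did. Between the arms, Pdgfra (0.96, adjusted p = 0.0232) and Twist1 (0.99, adjusted p = 0.002232) were called higher in OKS + FoxO6 and Col3a1 (-0.64, adjusted p = 0.01911) lower by edgeR, beside 6.93% and 7.13% of all genes tested. The calls of Pdgfra and Col3a1 were lost without day 3 or day 5 (adjusted p = 0.0869 and 0.0957 without day 5 by edgeR), among others. Pou5f1 (Oct4), which both arms received, was also called higher in OKS + FoxO6 (0.42, adjusted p = 0.0407 by edgeR), and of the 5 fits that left out a day it was called only in the one without day 0 (adjusted p = 0.0582 to 0.157 in the others). Of 14 skeletal muscle markers none passed the expression filter, and Myog, Myf5, Myf6 and Tnnt3 had no read in any library, while Acta1 reached 235.53 TPM in 1 library and Mylpf 125.3 TPM in another.

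The promoter sequences of the members with an exact match to a FoxO or a MEF2 motif are shown first, because these are the factors that the arms and the gene family are about. All 7 members matched RefSeq promoter windows (GRCm38.p6), 13 windows in all, each from 250 bases before to 50 bases after a start. The motifs were searched on both strands, as GTAAACA for FoxO, with TAAACA as its core, as CAAAACA for the insulin response element, and as CTANNNNTAG for MEF2. GTAAACA occurred in 3.65%, TAAACA in 13.4%, CAAAACA in 6.28% and CTANNNNTAG in 3.69% of all 32851 windows. The form of the MEF2 consensus that asks for A or T at the 4 middle bases of CTANNNNTAG occurred in 0.557%. Forms of the consensus with other end bases were not searched. The sequence before the RefSeq start of Hdac9 that lies next to the annotated start of Hdac9-201, at 34528874, is given on the minus strand at chr12:34528890-34529139, and the other lines give the matched bases with 10 bases on each side. Capitals mark the motif.
Hdac9, 250 bases before the start: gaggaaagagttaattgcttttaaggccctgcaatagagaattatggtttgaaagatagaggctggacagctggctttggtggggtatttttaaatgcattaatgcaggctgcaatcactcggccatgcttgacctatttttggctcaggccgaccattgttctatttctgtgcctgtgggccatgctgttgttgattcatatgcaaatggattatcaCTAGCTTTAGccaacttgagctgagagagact
Hdac5, chr11:102230173-102230202, minus strand: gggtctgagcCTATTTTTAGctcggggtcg
Mef2a, chr7:67372841-67372870, minus strand: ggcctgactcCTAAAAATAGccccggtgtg
Hdac7, chr15:97831862-97831888, minus strand: cctggcttgtGTAAACAtggatgcacg

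The Hdac5 and Mef2a matches met the MEF2 consensus and began 20 and 2 bases before the start. The Hdac9 match began 32 bases before the start, and its 4 middle bases were not all A or T. The 1 full FoxO match among the members lay in a window of Hdac7, 111 bases before the start, and neither of the 2 Hdac9 windows held GTAAACA. The Hdac9 windows were poor in G and C, with 45.33% and 44.0% against a median of 52.67% over all windows, and held 3 and 0 CG dinucleotides against a median of 7. Such matches are letters in these windows and say nothing of binding.

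Hdac9 was higher in OKS + FoxO6 than in OKS + DsRed on each of the 5 days. Its gene spans chr12:34047580-34917095 on the minus strand (ENSMUSG00000004698). In OKS + DsRed its level was 0.59 TPM on day 0, 8.65 on day 1, 21.25 on day 3, 32.38 on day 5 and 10.34 on day 7. In OKS + FoxO6 it was 3.34, 32.4, 92.8, 98.23 and 35.75 TPM on the same days. Both arms rose from day 0 to a peak on days 3 to 5 and were lower on day 7, and the ranges of the arms overlapped over the time course.

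These levels rest on 3, 29, 57, 71 and 32 reads in OKS + DsRed and on 25, 88, 302, 301 and 138 reads in OKS + FoxO6. With edgeR's quasi-likelihood test on counts, with day as a factor, the shift of Hdac9 between the arms was 1.82 on the log2 scale (SE 0.18, n = 5 days, adjusted p = 0.0001548), or 3.53-fold with a 95% interval of 2.69 to 4.63. It was the 62nd largest of the 761 shifts called higher in OKS + FoxO6. Of the 10977 genes tested, 6.93% were called higher and 7.13% lower in OKS + FoxO6 at an adjusted p under 0.05, and the median shift of all of them was -0.02. Among the 7 members Hdac9 alone was called, and none was called lower.

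No day had replicates, so the ratios on single days carry counting error only, with exact binomial 95% intervals. By CPM (counts scaled for depth but not for length) the ratio of OKS + FoxO6 to OKS + DsRed for Hdac9 was 4.42 (1.35 to 22.9) on day 0, where the control had 3 reads. It was 2.75 (1.79 to 4.35) on day 1, 3.90 (2.93 to 5.27) on day 3, 2.75 (2.12 to 3.62) on day 5 and 5.14 (3.48 to 7.81) on day 7. The interval lay above 1 on all 5 days, which held for 2.74% of the genes tested. On the log2(TPM + 1) scale the differences were 1.45, 1.79, 2.08, 1.57 and 1.70, all over 2-fold, which held for 0.149% of the 48476 genes, or 0.485% of those with a mean of at least 1 TPM.

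Over the 7 members and single days, 2 were more than 2-fold higher in OKS + FoxO6 on day 0, Hdac5 and Hdac9, where 4.47% of all genes were. On days 1, 3, 5 and 7 it was Hdac9 alone, beside 3.51%, 3.67%, 4.52% and 3.52% of all genes. More than 2-fold lower were Mef2c on day 0 (2.88% of all genes), Hdac5 on day 3 (4.98%), and Mef2a and Mef2c on day 7 (6.96%), and no member on day 1 (4.17%) or day 5 (4.95%). By log2 CPM the calls of Hdac9 held and the others did not, at 0.38 for Hdac5 on day 0 and -0.61 on day 3, -0.20 and 0.15 for Mef2c on days 0 and 7, and -0.88 for Mef2a on day 7. These shares are over all 48476 genes of the table, expressed or not. Among genes with a mean of at least 1 TPM, 7.95% to 10.4% were over 2-fold higher on a day and 6.32% to 16.3% lower, with 16.3% lower on day 7.

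**Figure D1:**
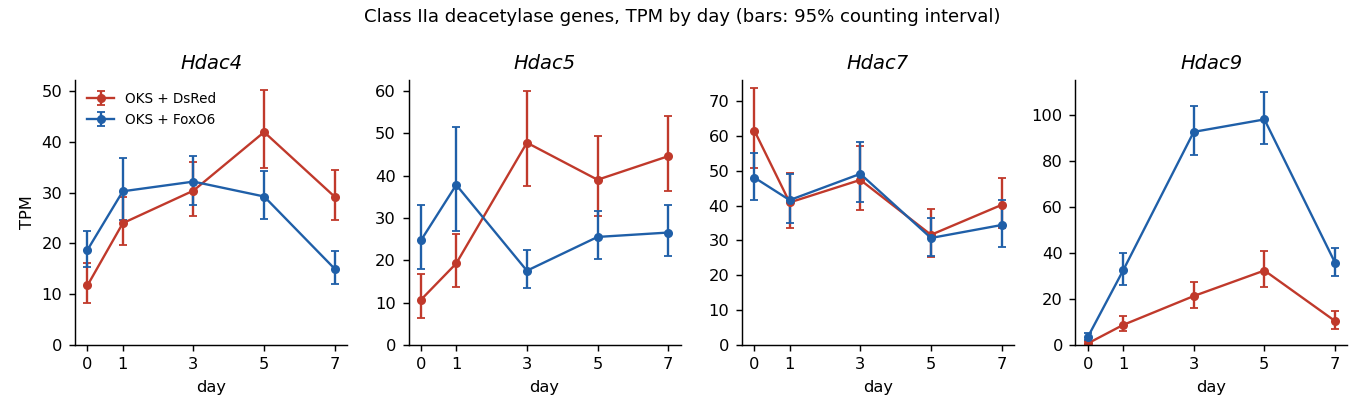
TPM of Hdac4, Hdac5, Hdac7 and Hdac9 (vertical axes, each from 0) by day (horizontal axes) in OKS + DsRed (red) and OKS + FoxO6 (blue), 1 library per point, with bars for the 95% counting interval. The Hdac9 line of OKS + DsRed lies below that of OKS + FoxO6 on every day, at 32.38 against 98.23 TPM on day 5. The Hdac7 lines run close together.

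Ordered by CPM, Hdac9 was lowest in OKS + DsRed day 0 (2.66) and then in OKS + FoxO6 day 0 (11.7), which differed beyond counting error. OKS + DsRed day 7 (17.5) and day 1 (19.3) came next and did not differ from each other or from their lower neighbour. OKS + DsRed day 3 (39.1) stood above day 1, and OKS + DsRed day 5 (52.6) and OKS + FoxO6 day 1 (53.3) could not be told apart, with a ratio of 1.01 (0.733 to 1.41). OKS + FoxO6 day 7 (89.9), day 5 (144.8) and day 3 (152.6) were the highest, and of these the last pair did not differ beyond counting error.

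The change of Hdac9 over the days passed the test (F test of 4 day terms, adjusted p = 9.946e-05), as 19.6% of all genes tested did. Against day 0 and over both arms its log2 fold change was 2.37 (SE 0.35, adjusted p = 0.004458) on day 1, 3.68 (SE 0.33, adjusted p = 6.973e-05) on day 3, 3.83 (SE 0.33, adjusted p = 2.612e-05) on day 5 and 2.78 (SE 0.33, adjusted p = 0.0001791) on day 7, by edgeR with Benjamini-Hochberg adjustment. From day 5 to day 7 the CPM fell to a ratio of 0.332 (0.212 to 0.511) in OKS + DsRed and 0.621 (0.504 to 0.762) in OKS + FoxO6. The gap between the arms showed no linear trend with day that passed the test, at 0.07 log2 units per day with a 95% interval of -0.09 to 0.24 (adjusted p = 0.644 by edgeR), and no member passed it, against 1.98% of all genes.

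The mix of the class IIa transcripts shifted with Hdac9. Hdac9 made up 0.698% of the summed class IIa TPM in OKS + DsRed on day 0, 9.32% on day 1, 14.5% on day 3, 22.3% on day 5 and 8.32% on day 7. In OKS + FoxO6 its share was 3.52%, 22.8%, 48.4%, 53.5% and 32.01% on the same days. The counting SE of these shares was 0.404 percentage points for the lowest and at most 2.32 for the others. Per length, Hdac9 was therefore the most abundant class IIa transcript in OKS + FoxO6 on days 3 and 5, where Hdac7, the second, was at 49.12 and 30.69 TPM. On day 7 its share there stood beside 30.81% for Hdac7, within counting error. Hdac9 was the least abundant in OKS + DsRed on days 0, 1, 3 and 7 and in OKS + FoxO6 on day 0. The summed class IIa level was 84.5 to 146.9 TPM in OKS + DsRed and 94.8 to 191.6 TPM in OKS + FoxO6.

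**Figure D2:**
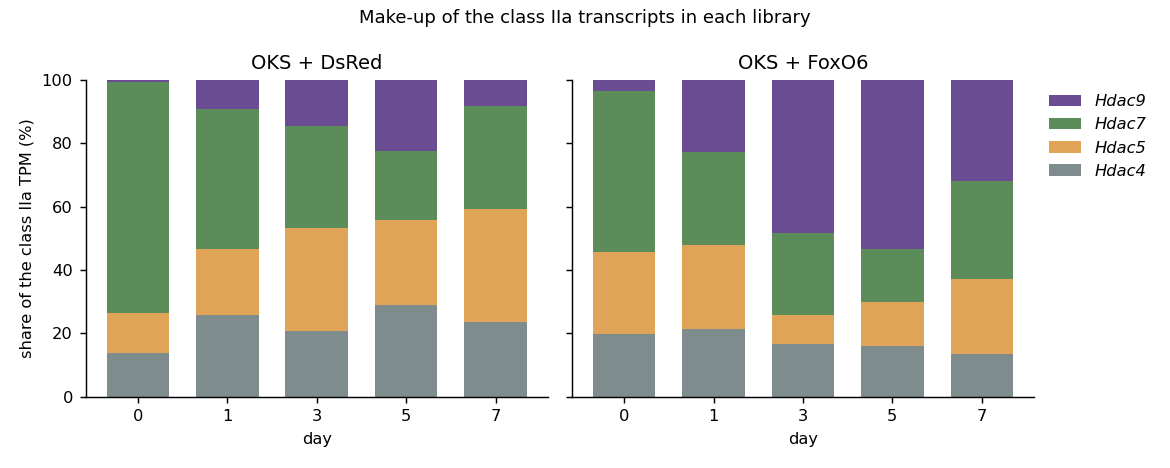
Share of each gene in the summed TPM of the 4 class IIa genes (vertical axis, percent) by day (horizontal axis) in OKS + DsRed (left) and OKS + FoxO6 (right), 1 library per bar. Hdac9 (top segment) reaches 22.3% in OKS + DsRed and 53.5% in OKS + FoxO6, both on day 5.

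The files give for each gene a mean transcript length, weighted by the estimated abundance of its transcripts. For Hdac9 it was 7940 nucleotides in OKS + DsRed and 6841 in OKS + FoxO6 on day 0, and between 3086 and 4490 in the other 8 libraries. The day 0 values rest on 3 and 25 reads. Of the 10 Hdac9 transcripts counted, 6 begin between 34528304 and 34528874, among them the full-length Hdac9-205 of 7940 nucleotides with 3192 coding bases, and Hdac9-201 of 4413 nucleotides with 1764 coding bases. Hdac9-201 ends at 34371497, far inside the gene, and thus lacks the exons at its 3′ end. Lengths of the arms overlapped for Hdac9, and which transcripts were made was not tested.

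The genes whose profile over the 10 libraries was nearest to that of Hdac9, by the root mean square difference of centred log2(TPM + 1) among 11422 genes with a mean of at least 5 TPM, were Dgka (0.569), Wnk4 (0.597), Elmo1 (0.636), Cxcr4 (0.695) and Ablim1 (0.697). The points of such a profile share libraries and the time course, so this is a description. Dgka, a diacylglycerol kinase, went from 10.61 to 68.64 TPM in OKS + DsRed and from 24.22 to 356.6 TPM in OKS + FoxO6, with a shift of 2.15. All 5 were called higher in OKS + FoxO6, a direction that the choice by likeness to Hdac9 favours. Of the other members the nearest was Hdac4, at rank 1064 with 1.51, and the farthest Mef2c, at rank 10479 with 2.21. By Pearson correlation 1 of these 5 genes, Ablim1, stayed among the nearest.

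The genes beside Hdac9 on chromosome 12 were looked at as its genomic neighbourhood. Twist1, a basic helix-loop-helix factor of mesenchyme that lies 87750 bases from Hdac9, was at 48.29 to 204.11 TPM in OKS + DsRed and 107.0 to 319.12 TPM in OKS + FoxO6, and was higher in OKS + FoxO6 on 5 of 5 days with a shift of 0.99 (SE 0.16, adjusted p = 0.002232 by edgeR). Twist1 was highest on day 0 in both arms, where Hdac9 was lowest. Snx13, a sorting nexin 130090 bases to the other side, was at 9.68 to 14.34 TPM in OKS + DsRed and 18.17 to 45.84 TPM in OKS + FoxO6, ranges that did not overlap, which held in this direction for 2.33% of the genes tested, with a shift of 1.32 (SE 0.19, adjusted p = 0.001211 by edgeR). Ahr, the aryl hydrocarbon receptor, which lies beyond Snx13, was not called (0.64, adjusted p = 0.248 by edgeR), and Ferd3l had no read. Of the 5 neighbours 3 were tested, and 2 were called higher, beside 6.93% of all genes tested.

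The other class IIa genes showed no shift between the arms that passed the test. Hdac7 (chr15:97792664-97844502, minus strand, ENSMUSG00000022475) was at 61.56, 40.9, 47.38, 31.6 and 40.2 TPM in OKS + DsRed and at 48.05, 41.58, 49.12, 30.69 and 34.42 TPM in OKS + FoxO6 on days 0, 1, 3, 5 and 7. Its shift was -0.01 on the log2 scale, with a 95% interval of -0.29 to 0.26 (adjusted p = 0.965 by edgeR), so a shift as large as that of Hdac9 lay far outside its interval. The CPM interval of each day included a ratio of 1. The gene overlaps Slc48a1 on the other strand, which had 1878 counts over the 10 libraries, and the counting is not stated to use strand.

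Hdac4 (chr1:91928779-92195699, minus strand, ENSMUSG00000026313) was at 11.71, 23.99, 30.41, 41.96 and 29.18 TPM in OKS + DsRed. In OKS + FoxO6 it was at 18.72, 30.28, 32.19, 29.25 and 14.97 TPM. The shift over the days was -0.07 (95% interval -0.42 to 0.28, adjusted p = 0.824 by edgeR). By CPM the ratio of the arms went from 1.55 (1.06 to 2.30) on day 0 to 0.758 (0.575 to 0.996) on day 7, and the trend with day was -0.10 log2 units per day (95% interval -0.21 to 0.01, adjusted p = 0.298 by edgeR). Its change over the days missed the threshold (adjusted p = 0.0761), though against day 0 day 3 gave 1.04 (SE 0.25, adjusted p = 0.01809) and day 5 gave 0.87 (SE 0.25, adjusted p = 0.03219 by edgeR).

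Hdac5 (chr11:102194432-102230166, minus strand, ENSMUSG00000008855) rose over the days (adjusted p = 0.0147 by edgeR), by 1.09 (SE 0.29) on day 3, 1.22 (SE 0.29) on day 5 and 1.45 (SE 0.29) on day 7 against day 0, on the log2 scale of counts over both arms. Not scaled for depth, it went from 18 to 102 reads in OKS + DsRed and from 45 to 77 in OKS + FoxO6 between day 0 and day 7. By CPM it rose over these days by a ratio of 3.496 (2.105 to 6.133) in OKS + DsRed and 2.372 (1.622 to 3.507) in OKS + FoxO6, intervals that overlap. By TPM it went from 10.64 to 44.63 in OKS + DsRed but only from 24.69 to 26.56 in OKS + FoxO6, because the mean transcript length given in the files went from 1717 to 3298 nucleotides there. With that length as an offset the change over the days had an adjusted p of 0.699, and without day 0 of 0.0894, by edgeR. Its shift between the arms was -0.21 (95% interval -0.60 to 0.18, adjusted p = 0.493 by edgeR).

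**Figure D3:**
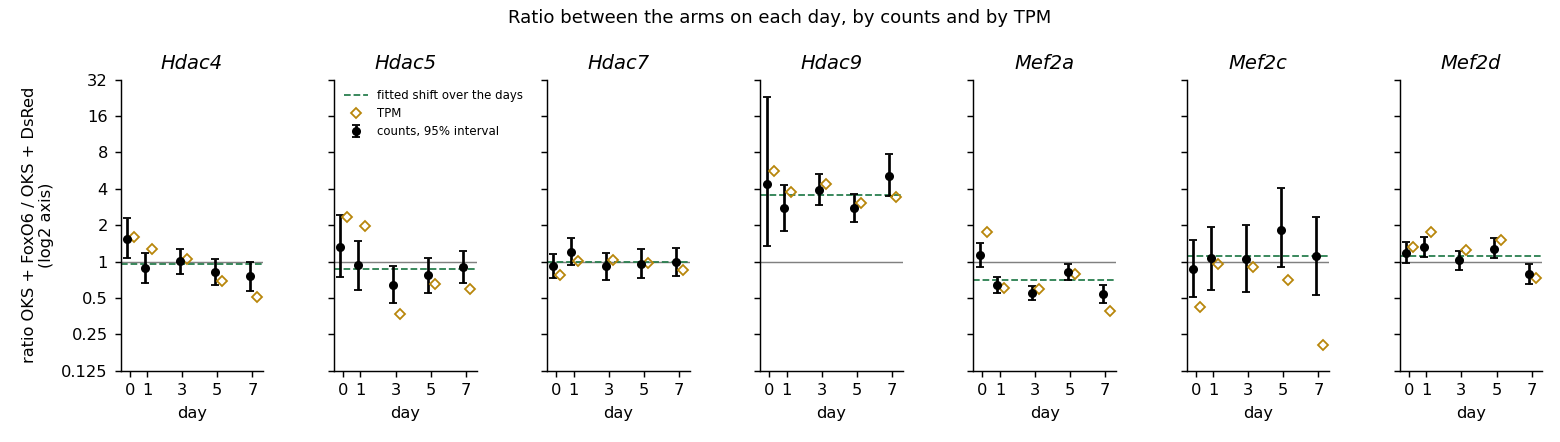
Ratio of OKS + FoxO6 to OKS + DsRed (vertical axes, log2 spacing) by day (horizontal axes) for the 7 members, from CPM with its 95% counting interval (black) and from TPM (open diamonds), with the fitted shift as a dashed line and a ratio of 1 as a grey line. For Hdac9 every interval lies above 1, and for Mef2a those of days 1, 3, 5 and 7 lie below it. For Mef2c the TPM ratio is 0.203 on day 7, where the CPM ratio is 1.12.

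Of the Mef2 factors, Mef2a was lower in OKS + FoxO6 after day 0 by both CPM and TPM. Mef2a (chr7:67231163-67372858, minus strand, ENSMUSG00000030557) was at 36.01, 124.94, 175.47, 117.82 and 113.22 TPM in OKS + DsRed and at 62.94, 75.2, 104.91, 93.3 and 44.61 TPM in OKS + FoxO6. It stood higher on day 0 and lower on the other 4 days. By CPM the ratio was 1.13 (0.908 to 1.42) on day 0, 0.640 (0.547 to 0.748) on day 1, 0.551 (0.486 to 0.625) on day 3, 0.820 (0.709 to 0.9497) on day 5 and 0.540 (0.455 to 0.639) on day 7. The shift over the 5 days, -0.51 (SE 0.16, 95% interval -0.86 to -0.17), missed the threshold (adjusted p = 0.05291 by edgeR). It passed without day 0 (-0.67, adjusted p = 0.0113), with DESeq2 (-0.52, adjusted p = 0.0436) and with no expression filter (-0.48, adjusted p = 0.0115). It was further from the threshold with the length offset (adjusted p = 0.177) and without day 1, 3, 5 or 7 (adjusted p = 0.0884 to 0.231 by edgeR).

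Mef2a changed over the days (adjusted p = 0.0215 by edgeR) and peaked on day 3 in both arms, at 1.37 above day 0 on the log2 scale (SE 0.25, adjusted p = 0.004371). The change over the days was not called with the length offset (adjusted p = 0.158), without day 0 (adjusted p = 0.132) or without day 3 (adjusted p = 0.0901) by edgeR. Within the arms, day 3 stood above day 0 by a CPM ratio of 3.80 (3.12 to 4.66) in OKS + DsRed and 1.85 (1.58 to 2.17) in OKS + FoxO6. From day 5 to day 7 Mef2a CPM changed by a ratio of 0.982 (0.850 to 1.14) in OKS + DsRed and 0.646 (0.544 to 0.766) in OKS + FoxO6. In OKS + FoxO6 day 7 did not differ from day 0 beyond counting error, with a ratio of 1.09 (0.905 to 1.32). Mef2a overlaps Lysmd4 on the other strand and Gm44667 on its own, with 184.7 and 65 counts over the 10 libraries, against 119.7 to 587.5 counts of Mef2a in each.

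Mef2d (chr3:88142372-88172086, plus strand, ENSMUSG00000001419) was at 68.54, 56.29, 86.97, 60.64 and 92.95 TPM in OKS + DsRed and 91.18, 99.02, 107.58, 91.67 and 67.69 TPM in OKS + FoxO6. Neither its shift (0.14, 95% interval -0.15 to 0.44, adjusted p = 0.543) nor its change over the days (adjusted p = 0.944) passed the test by edgeR. Its CPM ratio lay above 1 on day 1 (1.33, 1.09 to 1.61) and day 5 (1.28, 1.06 to 1.56) and below 1 on day 7 (0.797, 0.656 to 0.965). The trend with day was -0.07 log2 units per day (95% interval -0.16 to 0.02, adjusted p = 0.400 by edgeR). An antisense gene, 1700113A16Rik, overlaps it with 26.9 counts over the 10 libraries.

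**Figure D4:**
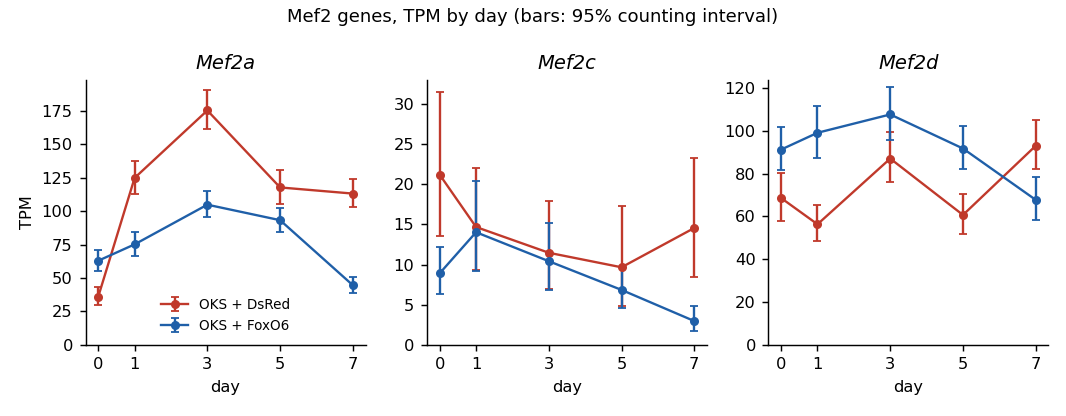
TPM of Mef2a, Mef2c and Mef2d (vertical axes, each from 0) by day (horizontal axes) in OKS + DsRed (red) and OKS + FoxO6 (blue), 1 library per point, with bars for the 95% counting interval. Mef2a peaks on day 3, at 175.47 and 104.91 TPM.

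For Mef2c (chr13:83504034-83667080, plus strand, ENSMUSG00000005583) counts and TPM differed, and counts gave no direction. It had 24, 23, 19, 11 and 17 reads in OKS + DsRed and 39, 27, 27, 31 and 16 reads in OKS + FoxO6. The shift of the counts was 0.17 (95% interval -0.36 to 0.69, adjusted p = 0.710 by edgeR), and every CPM interval of a day included 1. By TPM it was lower in OKS + FoxO6 on 5 of 5 days, as 9.71% of the genes tested were, with 21.2, 14.68, 11.47, 9.66 and 14.56 TPM against 8.91, 14.03, 10.42, 6.84 and 2.96 TPM. With the length as an offset the shift was -0.85 (adjusted p = 0.147 by edgeR).

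The measures differ by the estimated length, by which TPM is scaled and counts are not. The mean length of Mef2c transcripts was 1262 to 2332 nucleotides in OKS + DsRed and 2402 to 6088 in OKS + FoxO6, ranges that did not overlap. Among the genes tested whose length varied, 0.365% had lengths that did not overlap and were longer in OKS + FoxO6, and 0.365% shorter. The estimate divides 11 to 39 reads over 31 annotated transcripts of 332 to 6277 nucleotides, and the part of either in the difference was not tested. Mef2b, the fourth gene of the family, had at most 1 read in a library and was not tested.

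**Figure D5:**
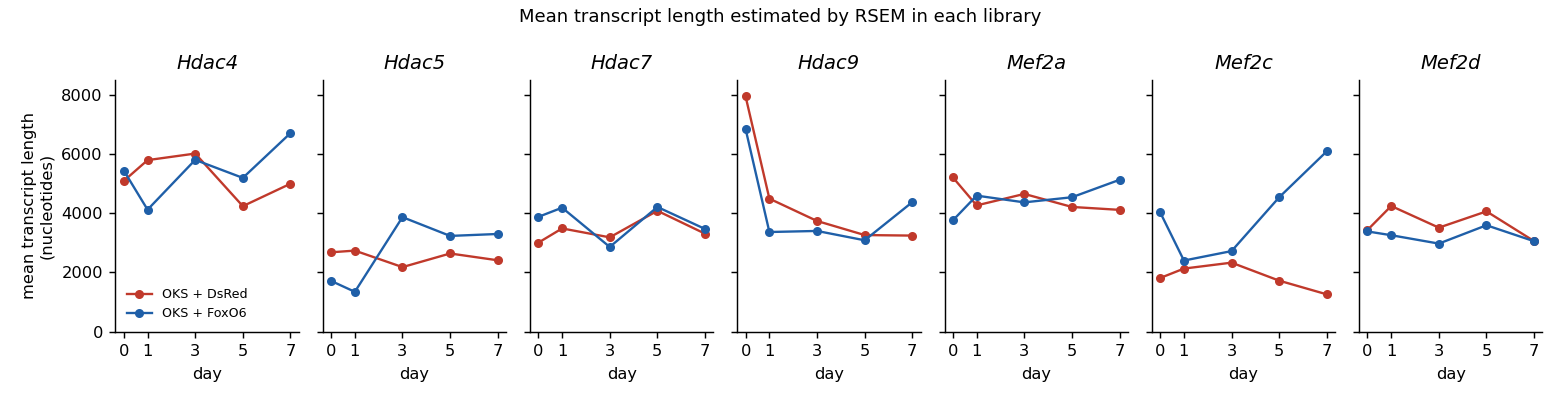
Mean transcript length in nucleotides (vertical axis) as the files give it, by day (horizontal axes) for the 7 members in OKS + DsRed (red) and OKS + FoxO6 (blue), 1 library per point. Hdac9 falls from 7940 and 6841 on day 0 to 4490 or less, and the Mef2c lines do not overlap, with 6088 against 1262 on day 7.

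The proteins that act with the class IIa deacetylases and the other deacetylases are read beside the 6.93% of all genes called higher and the 7.13% called lower. Of 11 corepressors, all tested, 1 was called lower and none higher, with a median shift of -0.12. The one was Cbx5, the heterochromatin protein HP1 alpha, which was at 36.89 to 93.32 TPM in OKS + DsRed and 28.34 to 43.52 TPM in OKS + FoxO6 and fell by 0.72 on the log2 scale (SE 0.14, adjusted p = 0.007117 by edgeR), a call that every alternative with a day term kept. Of 8 genes of 14-3-3 proteins and exportin none was called, with a median shift of -0.09. Of 4 class I deacetylases 1 was called lower, Hdac1 (-0.44, adjusted p = 0.03237 by edgeR), and of 3 of classes IIb and IV 2 were tested and 1 was called lower, Hdac6, the tubulin deacetylase (-0.44, adjusted p = 0.03948 by edgeR). Among 7 sirtuins, 4 were tested and 2 were called higher, Sirt2 at 0.65 and Sirt7 at 0.74 (adjusted p = 0.0116 and 0.01803 by edgeR). The calls of Hdac1 and Hdac6 were lost with DESeq2 (adjusted p = 0.0571 and 0.0742) and without day 5 (adjusted p = 0.168 and 0.157 by edgeR) among others, and those of Sirt2 and Sirt7 without day 5 (adjusted p = 0.0589 and 0.0926 by edgeR).

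Of 19 kinases that act on the export serines, directly or through another kinase, 15 were tested. None was called higher and 2 lower, with a median shift of 0.05. Sik1, a salt-inducible kinase, was at 5.22, 7.72, 15.71, 21.65 and 27.49 TPM in OKS + DsRed and 10.6, 2.73, 5.07, 4.44 and 6.27 TPM in OKS + FoxO6, with a shift of -1.37 (SE 0.38, adjusted p = 0.03749 by edgeR). In the control arm each day stood above the one before, and with FoxO6 all days were at or under 10.6 TPM, though its trend with day was not called (-0.34 per day, adjusted p = 0.116 by edgeR). The other was Camk1d, a calcium/calmodulin-dependent kinase (-0.76, SE 0.17, adjusted p = 0.01562 by edgeR). Without day 5 neither was called (adjusted p = 0.174 for Sik1 and 0.0727 for Camk1d by edgeR), and of the 5 fits that left out a day, Sik1 was called only in the one without day 0.

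Of 12 genes of proteins that act on MEF2, most of them activators or coactivators, all were tested and 1 was called higher. The one was Ppp3cc, a catalytic subunit of calcineurin, the calcium-dependent phosphatase. It was at 8.21, 23.1, 5.81, 10.83 and 7.08 TPM in OKS + DsRed and 19.25, 31.6, 25.03, 24.59 and 21.3 TPM in OKS + FoxO6, with a shift of 1.21 (SE 0.27, adjusted p = 0.01248 by edgeR) and a higher level on 5 of 5 days. The counts behind it were 8 to 49 reads, and without day 3 it was not called (adjusted p = 0.0580 by edgeR).

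Of 28 known MEF2 target genes, most of them muscle genes, 7 passed the filter, 2 were called higher and 3 lower in OKS + FoxO6, beside 6.93% and 7.13% of all genes, with a median shift of -0.04. Klf6 (0.74, adjusted p = 0.007071) and Bdnf, a neurotrophin (0.93, adjusted p = 0.02209), were higher on 5 of 5 days by edgeR. Nr4a1, an orphan nuclear receptor and a calcium-dependent MEF2 target in T cells, was at 48.4 to 70.31 TPM in OKS + DsRed and 32.86 to 46.65 TPM in OKS + FoxO6, ranges that did not overlap, as held for 1.5% of the genes tested in this direction (-0.60, adjusted p = 0.01554 by edgeR). Jun (-0.56, adjusted p = 0.01369) and Klf2 (-1.25, adjusted p = 0.02006) were lower on 5 of 5 days by edgeR. Without day 3, Nr4a1, Jun, Klf2 and Bdnf were not called (adjusted p = 0.0662, 0.0784, 0.0784 and 0.0710 by edgeR), while Klf6 was.

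Among the markers of other cell types, endothelial and neuronal genes were called between the arms, beside 6.93% of all genes called higher and 7.13% lower. Of 10 endothelial markers 2 were tested and both were called higher in OKS + FoxO6, Tek (0.95, adjusted p = 0.001144) and Kdr (2.19, adjusted p = 0.02884 by edgeR), with a summed level of 40.98 to 64.18 TPM in OKS + DsRed and 43.31 to 147.8 TPM in OKS + FoxO6, while Pecam1 was at most at 5.73 TPM in OKS + DsRed and 0.76 TPM in OKS + FoxO6, and Cdh5 at most at 0.39 and 1.24 TPM. Tek was higher in OKS + FoxO6 on 5 and Kdr on 3 of 5 days. Of 8 neuronal markers 4 were tested and 3 were called lower, Tubb3 (-2.59), Stmn2 (-1.15) and Syt1 (-0.997), with summed levels of 192.9 to 632.5 and 106.5 to 293.0 TPM. The fourth, Map2, was not called (-0.03, adjusted p = 0.962 by edgeR). Rbfox3, Snap25, Elavl4 and Dcx were under the filter, with means of 0.32, 0.477, 1.346 and 0.167 TPM over all libraries. Of 10 macrophage markers 1 and of 10 cardiac and smooth muscle markers 3 were tested, with none called. Of 8 pluripotency markers 1 was tested and not called, and their summed level was 4.75 to 343.0 TPM in OKS + DsRed and 1.1 to 77.34 TPM in OKS + FoxO6. On day 7, when Hdac9 was below its day 5 level in both arms, Nanog was at 58.35 TPM in OKS + DsRed and 8.31 TPM in OKS + FoxO6, after 14.94 and 1.02 TPM on day 5. Neither Kdr nor Stmn2 was called without day 3 or day 5 (adjusted p = 0.135 for Kdr and 0.0567 for Stmn2 without day 5 by edgeR). Whether cells of these types were present, and their part in the levels of Hdac9 and Mef2a, was not tested.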

How the data were processed

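Bulk RNA-seq of 10 libraries was used, 1 per arm (OKS + DsRed, OKS + FoxO6) and day. The authors aligned reads to mm10 with GENCODE M13 through RSEM and bowtie2, and deposited expected counts and TPM per gene, with the abundance-weighted length of its transcripts. Library kits are given as VAHTS per the labels and as TruSeq in the methods. Expected counts were rounded and fitted with edgeR 4.0.16 (R 4.3.3), with TMM factors, filterByExpr by arm, and day as a factor plus arm (residual degrees of freedom 4, common dispersion 0.0336). In the test of the arms, days stand in for replicates. Its p-values measure how steadily the arms differed over 5 days and not the spread between cultures. In the tests of the days, the 2 arms stand in as repeats. Those p-values measure how alike the day changes were in the arms, and not the spread between cultures either. The trend was fitted as arm by numeric day. Benjamini-Hochberg adjustment ran over 10977 genes, at a threshold of 0.05. Days were tested against day 0 over both arms, and the arms within a day were not tested. CPM used TMM, log2 TPM a pseudocount of 1. Intervals cover counting error only, and reads without molecular identifiers are not independent molecules. Coordinates are from GENCODE M21 (GRCm38). The fits were tested on simulated data. Python 3.11.15 was used for the rest, and DESeq2 1.42.0 as an alternative.

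The members and lists were chosen with earlier results of these data known. The genes named by rule are the members, up to 4 called genes of each list with the largest shifts, the 5 genes nearest to Hdac9, and Foxo6. Jun, Ahr, genes with a called trend, genes listed as without a read and single uncalled markers or overlapping genes stand outside this rule and were named after their values were seen. Other alternatives were other size factors, no filter, a length offset, no day term, a linear day term, each day left out, a pseudocount of 0.1 and CPM.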

Additional observations from a re-analysis of the deposited data

Results flagged for a closer look

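The gap between the arms changed with day for 4 genes of the lists, by edgeR's test of arm by day, and for none of the 7 members. Kdr, an endothelial growth factor receptor, gained 0.82 log2 units per day in OKS + FoxO6 relative to OKS + DsRed (adjusted p = 0.00278), with 1.23 TPM in OKS + DsRed and 20.76 TPM in OKS + FoxO6 on day 7. Col1a2, a fibroblast collagen, gained 0.36 per day (adjusted p = 0.002119), at 261.51 against 757.61 TPM on day 7 after 1615.27 against 1336.33 TPM on day 0. Of the MEF2 targets, Bdnf gained 0.25 per day (adjusted p = 0.01642), with 8.93 against 34.47 TPM on day 7. Egr1, an immediate early gene, moved the other way by -0.28 per day (adjusted p = 0.02696), from 63.79 against 184.57 TPM on day 0 to 83.19 against 40.86 TPM on day 7. Without day 7 the trends of Bdnf (0.22, adjusted p = 0.231) and Egr1 (-0.11, adjusted p = 0.648) were not called by edgeR. With 1 library per group, no library could be compared with replicates.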

How the results depend on the processing

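The shift of Hdac9 was 1.66 to 1.96 with each day left out (adjusted p 0.0001392 to 0.002309 by edgeR), and was called under every alternative but the fit with no day term (1.78, adjusted p = 0.243), where members called higher went to 0 and all genes called to 124 higher and 44 lower. Members called lower went from 0 to 1 (Mef2a) with DESeq2, with no filter and without day 0. No filter gave 1148 genes higher, and leaving out days gave 366 to 812 higher and 297 to 813 lower. Shifts close to 0 changed sign. That of Hdac4 ran from -0.209 to 0.0022 and that of Hdac7 from -0.0799 to 0.0271 with a day left out, above 0 without day 7 for Hdac4 and without days 0 (0.0196), 3 or 5 (0.0045) for Hdac7, which was also above 0 with no filter (0.0216). Of 29 other named genes called, none changed sign, 13 stayed called under every alternative with a day term, 16 were lost in at least 1, and 26 were lost with no day term. The shift of Mef2c went to -0.85 with the length offset.

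For the change over the days, 3 members were called in the main fit, beside 19.6% of all genes tested. With the length offset 1 was called (Hdac9), and with a day left out 1 to 4, with Hdac9 alone without day 0. All genes called were 3816 with no filter and 1056 to 2485 with a day left out. A linear day term lost Hdac9 (adjusted p = 0.174) and Mef2a (adjusted p = 0.641) and gained Mef2c (adjusted p = 0.0426) by edgeR.

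No member's trend was called in any fit, while over all genes 2068 had an unadjusted p under 0.05 and 217 were called by edgeR. DESeq2 called 73 higher and 53 lower, no filter 319 and 309, the length offset 62 and 46, and leaving out days 44 to 111 and 28 to 122. Trends per day changed sign for Hdac5 (-0.139 to 0.0171, above 0 without day 0), for Hdac7 (-0.04 without day 0 to 0.0164 without day 1) and with the length offset (0.0304), for Hdac9 (-0.0451 without day 7 to 0.117 without day 5, and -0.0449 with the length offset) and for Mef2c with the length offset (-0.12). Members over 2-fold on a single day by log2(TPM + 1) were 1 by CPM on each of days 0, 3 and 7, as on days 1 and 5, which was Hdac9 on all 5 days, and Mef2c on day 7 went to 0.15. Among genes with a mean of at least 1 TPM, the share over 2-fold on a day was 7.95% to 10.4% higher and 6.32% to 16.3% lower. The length offset changed calls by its own construction, and the cause of the others was not tested.

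Depth limits Hdac9 on day 0, at 3 reads in OKS + DsRed, and Mef2c throughout. With 1 library per arm and day, culture and arm cannot be told apart on any day. The day term of the main fits pairs the arms by day, and the labels carry no replicate numbers for another block.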
